A study of Drosophila melanogaster with 2 samples.

Results

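The histone genes of the repeat cluster were defined as the protein-coding genes of the Ensembl BDGP6 annotation whose symbols begin with His1:, His2A:, His2B:, His3: or His4:. The rule uses names alone and found 111 genes of the 13968 protein-coding genes on the 7 chromosome arms. They comprised 23 His1, 20 His2A, 23 His2B, 23 His3 and 22 His4 genes, and all of them lay in 1 array on arm 2L. The measurement was chromatin immunoprecipitation sequencing of Rfx, a transcription factor of the RFX family, in Drosophila melanogaster. The series held 1 group, whole embryos of the strain labelled Rfx-GFP collected at 0 to 24 h, as 2 biological replicates. The embryos expressed an Rfx-eGFP fusion, and the label describes an insertion that targets Rfx. The immunoprecipitation used an antibody against GFP, although the antibody field of the labels reads Rfx. Whole embryos mix many cell types, and no embryos without the fusion were analysed here, so the question addressed was where peaks were listed and not how they differed between conditions.

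The genes of the array encode the histones that package newly replicated DNA. They are transcribed mainly in S phase, and their mRNAs end in a stem-loop rather than a poly(A) tail. In flies each repeat carries the genes for the 4 core histones and the linker histone, and the array nucleates a nuclear compartment called the histone locus body. His3 and His4 share a divergent promoter whose GA repeats are bound by the zinc-finger protein Clamp, and His2A and His2B share another. RFX factors are known mainly as activators of cilium genes and bind a palindrome called the X-box.

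The deposited files were 8 lists of peaks on the dm6 build. A ranked list held all peaks scored by the irreproducible discovery rate (IDR), a measure of how far a peak's rank repeats, and a thresholded set held peaks with a score of 830 or more, an IDR of about 0.01. A larger and a conservative pair of lists came from both replicates, and each replicate had a pair of its own. The larger pair held 108153 ranked and 9250 thresholded peaks, the conservative pair 90971 and 6978, replicate 1 had 81130 and 6297, and replicate 2 had 86234 and 6953. Depth is unknown for both replicates, since the lists give no numbers of reads. The signal of a peak is the enrichment value given by the authors' caller, on a scale that is not stated, and was compared within a list only.

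The array ran from chr2L:21416953-21541681, a stretch of 124.7 kb, and its repeats were nearly uniform. The distance between neighbouring His1 start sites had a median of 5045 bp, and the shortest of the 22 distances was 4843 bp. The longest, of 14041 bp, was the only one far from the median, and it held the transposable element roo. The assembly also has 1 run of 100 undetermined bases inside the array, so the number of copies is that of the reference genome. The embryos' own number was not measured.

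The promoters are shown because summits are counted around them and several copies are identical. All lie on 2L of dm6 and were read 5′ to 3′ from the RefSeq genome of that build. The divergent regions are given on the plus strand between the annotated starts of both genes, and the His1 promoter on the strand of the gene from 250 bp before to 50 bp after its start. Capitals mark GAGAG, the GA repeat. They also mark TATAAA, a form of the TATA box, and would mark GGCAAC, which is 1 arm of the X-box and has no match here. Matches on either strand were marked, with overlaps joined. The commonest His4-His3 region was found in 5 of 22 copies, for example at chr2L:21459266-21459446. The region between His4:CG31611 and His3:CG31613, at chr2L:21425006-21425192, is the one with a ranked summit. It occurred in 1 copy and stood 8 single-base edits from the commonest. The commonest His2B-His2A region (chr2L:21423609-21423736) was found in 8 of 20 copies and the commonest His1 promoter (chr2L:21491291-21491590) in 8 of 23.
His4-His3, commonest: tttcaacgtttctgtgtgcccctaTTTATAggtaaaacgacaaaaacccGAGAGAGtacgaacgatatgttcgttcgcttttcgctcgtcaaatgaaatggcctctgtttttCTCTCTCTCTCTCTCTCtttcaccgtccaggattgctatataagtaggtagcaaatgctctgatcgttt
His4-His3, with a ranked summit: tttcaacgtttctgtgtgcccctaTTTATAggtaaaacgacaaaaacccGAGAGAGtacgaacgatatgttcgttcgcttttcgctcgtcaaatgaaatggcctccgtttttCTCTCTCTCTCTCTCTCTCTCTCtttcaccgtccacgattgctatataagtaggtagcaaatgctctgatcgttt
His2B-His2A, commonest: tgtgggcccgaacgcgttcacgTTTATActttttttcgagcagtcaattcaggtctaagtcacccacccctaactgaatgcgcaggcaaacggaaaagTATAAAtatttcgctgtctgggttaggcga
His1, commonest: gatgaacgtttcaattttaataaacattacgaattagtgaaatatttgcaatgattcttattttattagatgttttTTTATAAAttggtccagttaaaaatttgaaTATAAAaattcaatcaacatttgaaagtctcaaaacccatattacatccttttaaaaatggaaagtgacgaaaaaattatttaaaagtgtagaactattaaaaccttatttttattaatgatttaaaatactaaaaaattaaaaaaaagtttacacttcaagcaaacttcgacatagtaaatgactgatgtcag

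No histone gene had a peak at its start in any thresholded set. A gene was counted when any of its transcription start sites (TSSs) had a summit at 500 bp or less. In the larger thresholded set the count was 0 of 111 histone genes, against 35.4% of all protein-coding genes. It was 0 of 111 in the conservative set, against 29.9%, in the replicate 1 set, against 28.2%, and in the replicate 2 set, against 29.6%. A count of 0 of 111 allows a share of up to 2.70% by a limit of 3 counts, and of 3.35% by the upper end of the 95% Wilson interval. Both cover at most counting error and treat the copies as independent, although they share their sequence and are not. The linker histone gene His1, the nucleosome core genes His2A, His2B, His3 and His4 and both divergent promoters were alike in this, with 0 genes in each class in each of the 4 sets. No summit of these sets lay anywhere between the first and the last histone gene.

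The rule for named genes singled out the ends of the array and the first copy of each class without a listed peak. His1:CG33801 (FBgn0053801) opened the array and His3:CG33866 (FBgn0053866) closed it. The first copies without a summit in the larger ranked list were His1:CG33801, His2A:CG31618 (FBgn0051618), His2B:CG33910 (FBgn0053910), His3:CG33803 (FBgn0053803) and His4:CG33909 (FBgn0053909).

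The array held no passing peak in any ranked list, so none could be left out of the thresholded sets. Of the 108153 peaks of the larger ranked list, 9477 had a passing score and 227 of these were left out of the thresholded set. None of the 227 lay in the array and 0 histone genes had a passing peak at their TSS before that step, against 36.1% of all protein-coding genes. The passing peaks left out numbered 175 for the conservative pair, 187 for replicate 1 and 196 for replicate 2, and 0 of each lay in the array. On 2L the nearest left-out peak of the larger pair had its summit at 21237201, 179752 bp before the array, with a signal of 141.4 and a score of 1000.

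Below the threshold, 4 of the 111 histone genes had a summit in the larger ranked list, 3.60%, against 75.3% of all protein-coding genes. The 95% Wilson interval, 1.41 to 8.90, treats the copies as independent, which they are not. The 4 genes were His4:CG31611, His3:CG31613, His2B:CG33868 and His3:CG33866, served by 3 peaks. The conservative ranked list held 1 of 111, at His2B:CG33868, against 68.3%. The replicate 1 ranked list held 0 of 111, against 65.3%, and the replicate 2 ranked list held 3 of 111, against 73%. No His1 and no His2A gene had a summit in any ranked list. None of these summits was thus listed in replicate 1. Only that at His2B:CG33868 was listed in replicate 2 and in both lists made from both replicates.

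**Figure D1:**
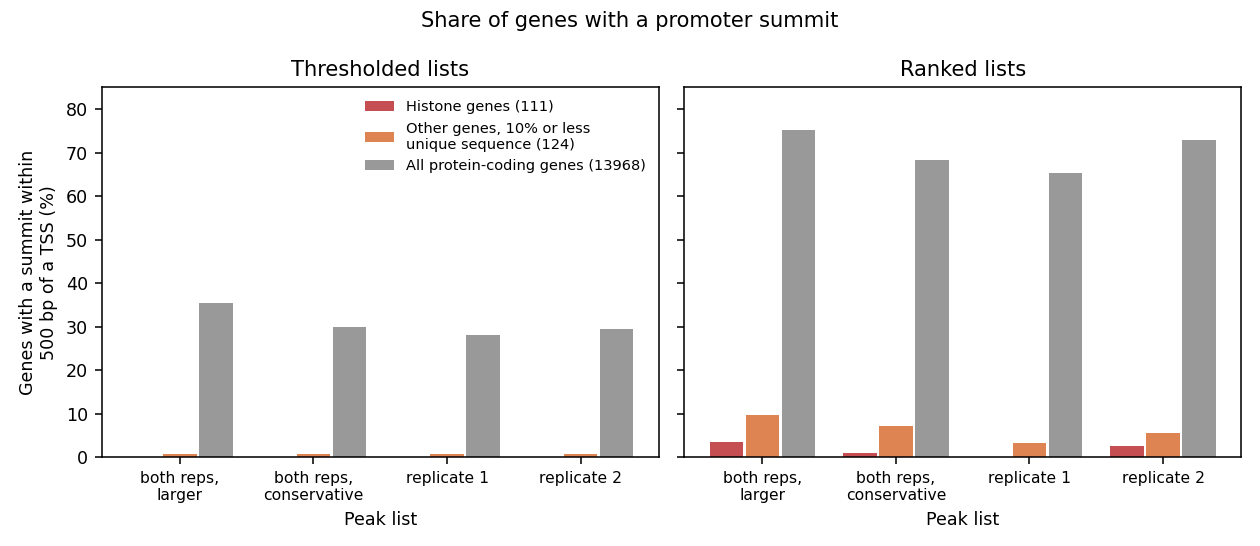
Percent of genes with a peak summit within 500 bp of a TSS in each thresholded (left) and ranked (right) list, for the 111 histone genes, 124 other genes with 10% or less unique sequence and all 13968 protein-coding genes. Histone genes had none in the thresholded sets and at most 3.60% in a ranked list, where the bars of all genes reach 65.3% to 75.3%.

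The most promoter-like of the 3 peaks sat in the shared promoter of His4:CG31611 (FBgn0051611) and His3:CG31613 (FBgn0051613), which encode core histones of the nucleosome. In replicate 2 it spanned chr2L:21424965-21425288 with a signal of 31.9, at percentile 86.0 of that ranked list. Its score was 475, an IDR of 0.0718, which is the highest score of any peak in the array. In the larger ranked list the same summit, at 21425127, had a signal of 25.5, rank 48671 of 108153, and a score of 115. Replicate 1 and the conservative ranked list held no peak in the array at that place. The summit lay at -122 bp from the His4 start and at -66 bp from the His3 start, a minus sign meaning upstream, within the region printed above, which holds the long CT run. The longest CT run of this region was 25 bases, the upper end of the range over the 22 His4-His3 regions, whose median was 21.

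The peak at His2B:CG33868 (FBgn0053868), a gene for a core histone, lay 427 bp into the gene and not at its promoter. Its signal was 30.3 in the larger ranked list, at percentile 64.9 with a score of 196. The conservative list gave the same signal with a score of 96. Replicate 2 gave 21.0, at percentile 70.5 with a score of 221, and replicate 1 had no peak. The peak at His3:CG33866, the last histone gene, was the weakest. It appeared in the larger ranked list alone, with a signal of 4.15, percentile 3.78 and a score of 39, the lowest score of that list. Its summit lay at -205 bp from the His3 start, inside the pseudogene His-Psi:CR33867. The peak, at chr2L:21540776-21541119, also overlapped the end of the transposable element pogo, at 21539460-21540930.

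By their medians these summits were weak beside those of all genes in the larger ranked list, and only somewhat weaker in that of replicate 2. Among the genes with a summit in the larger ranked list, the strongest TSS signal had a median of 25.5 over the 4 histone genes and 65.1 over all 10512 genes. In the replicate 2 ranked list the medians were 31.9 over 3 histone genes and 37.2 over 10194 genes. The highest score at each gene had a median of 115 for histone genes and 733.5 for all genes in the larger list, and of 475 and 559 in replicate 2. In each list His4:CG31611 and His3:CG31613 shared 1 peak, so the medians rest on 3 and 2 peaks.

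The array formed one of the longer peak-free stretches of the genome. In the larger thresholded set no summit lay between 21371053 and 21572779, a gap of 201.7 kb and the 19th longest of 9240 gaps on the arms, whose median was 4.77 kb. In the replicate 1 and replicate 2 sets the gap was 222.4 and 201.7 kb. In the larger ranked list the longest gap of the array was 112.5 kb, from the His4-His3 summit to the His2B summit, ranked 53 of 106756, with a median gap of 0.676 kb. The array held 24.1 ranked summits per Mb, against 776 on all arms.

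Further summits of the larger ranked list lay close after the array and not close before it. In that list 4 summits lay within 5 kb after the last histone gene and 0 within 5 kb before the first. Their scores lay between 39, the lowest of that list, and 87. The nearest summit after the array was 1.74 kb away in the conservative ranked list, 5.40 kb in that of replicate 1 and 28.8 kb in that of replicate 2. The nearest genes outside the array were mixed, with more of them lacking a peak in the larger thresholded set than having one. CG8665, 39.0 kb before it, had a peak with a signal of 173.5 in the larger thresholded set and a peak in both replicates' sets. nrv3, which encodes a sodium pump subunit and lies 23.6 kb before the array, had none. Gr39b, 47.2 kb before it, had none either. On the other side Lamp1, a lysosomal membrane protein gene at 31.7 kb, and nompB, an intraflagellar transport gene at 36.6 kb, had none within 500 bp of a TSS. The thresholded summit that ends the gap, at 21572779 and 31.1 kb after the array, lay upstream of Lamp1 just outside that window. CG2201, at 72.6 kb, had a signal of 99.4 and a peak in the replicate 1 set and not in that of replicate 2.

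**Figure D2:**
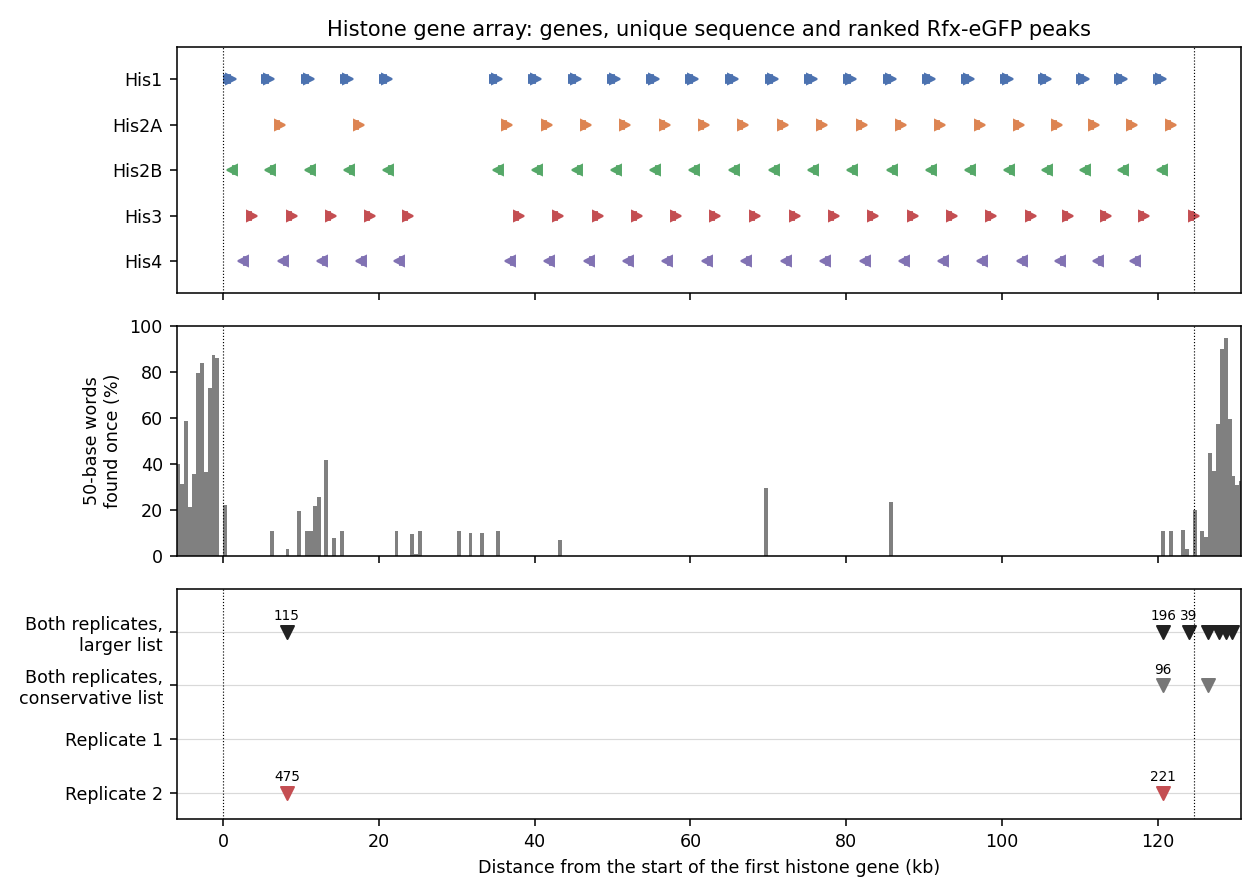
Genes of the 5 histone classes with their direction (top), the percent of 50-base words found at a single place in the genome in bins of 500 bp (middle), and ranked peaks with the IDR score printed over those within the array (bottom), against distance from the first histone gene in kb. Dotted lines mark the ends of the array. The listed peaks lie near its ends, at 8174 bp and from 120719 bp on, and replicate 1 has none within 5 kb of the array. Summits farther than 5 kb from the array were not drawn, among them a replicate 1 summit 5.40 kb after it.

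The array held almost no sequence that occurs at a single place in the genome. Of the words of 50 bases in the array, 1.44% occurred at 1 place on either strand of the genome, against 86.9% over all arms. The shares were 1.08% and 86.0% for words of 36 bases and 2.72% and 88.7% for words of 100 bases. Within 500 bp of the TSS the median share of unique 50-base words was 0% in each of the 5 classes, against 100% over all protein-coding genes. It was above 0 at 13 histone genes and 0 at the other 98. All 4 histone genes with a ranked summit were among the 13, and none among the 98. This split depends on the word length. With words of 36 bases the share was 0% at both His4:CG31611 and His3:CG31613, which share the highest-scoring peak of the array. Within the 13, the 4 had lower shares of unique 50-base words than several without a summit. The share was 5.25% at His2B:CG33868, 4.41% at His3:CG33866 and 1.47% at both His4:CG31611 and His3:CG31613. The 6 histone genes with the highest shares, from 13.2% at His1:CG33804 to 23.6% at His2B:CG33908, had no ranked summit.

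Other genes with little unique sequence also had few peaks. Of 124 protein-coding genes outside the array with at most 10% unique words around the start, a limit chosen after the data were seen, 1 had a summit in the larger thresholded set (0.806%) and 12 in the larger ranked list (9.68%). The 111 histone genes had 0 and 4 (3.60%), and the 105 of them with at most 10% unique words had 0 and 4 (3.81%). The 87 other genes with over 10% and up to 50% unique words had 8.05% and 29.9%. The 13646 other genes with over 50% unique words had 36.2% and 76.7%. Among genes with no unique 50-base word, 0 of 98 histone genes and 3 of 83 others (3.61%) had a ranked summit. The treatment of reads that match several copies is not given in the sources used here. What part repeated sequence had in the absence of peaks was not tested, and these lists cannot tell an unoccupied array from one that the reads could not show.

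**Figure D3:**
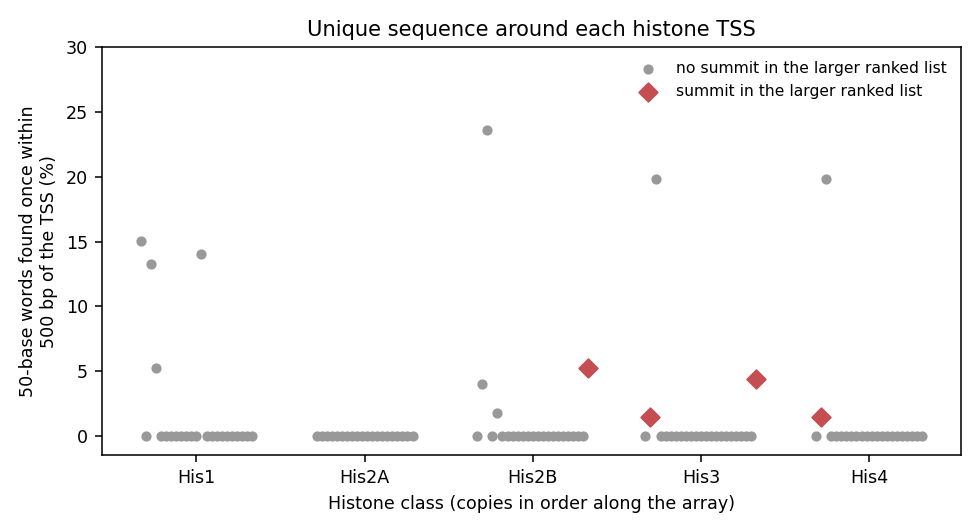
Percent of 50-base words found at a single place in the genome within 500 bp of the TSS, for each of the 111 histone genes by class, in their order along the array. Diamonds are the 4 genes with a summit in the larger ranked list, which lie between 1.47% and 5.25%, and grey points are the others, with 98 genes at 0.

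Most promoters of a class, cut at the annotated start, differed little in sequence, with exceptions in His4, His3 and His2A. The 300-base promoter had 6 distinct sequences among 23 His1 genes, 5 among 20 His2A, 6 among 23 His2B, 8 among 23 His3 and 8 among 22 His4 genes. The commonest version covered between 5 genes (His4) and 8 genes (His1, His2A and His2B). The median number of single-base edits from the commonest promoter was 2 for His1, 3 for His2A and His2B, 4 for His3 and 6 for His4. The most distant copy stood 166 edits away in His4, 42 in His3, 36 in His2A, 7 in His1 and 6 in His2B. The regions between His4 and His3 starts ran from 25 to 188 bp with a median of 183, and those between His2B and His2A from 128 to 145 bp. A start annotated elsewhere in the repeat also counts as edits. His4:CG33875, for example, was annotated at 21519556-21520083, with the next His3 start at 21520109, while the median His4 gene was 413 bp. The edit counts and region lengths therefore do not measure sequence change alone. The transcribed part was most uniform in His3, where 18 of 23 genes were identical and only 2 distinct sequences occurred. It varied most in His1, with 12 distinct sequences.

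The promoters of the 5 classes differed in their exact motif matches, although none had a passing peak. Motifs were matched with no mismatch on both strands of the 300-base promoters. GAGAG was found at all 23 His3 and all 22 His4 promoters and at 0 of the His1, His2A and His2B promoters, against 29.7% of 13960 protein-coding promoters. TATAAA was found anywhere in the promoter at 94.6% of histone genes against 45.8% of all. Between 40 and 20 bp before the start and on the strand of the gene, positions chosen after the data were seen, TATAAA began at 23 of 23 His2B, 19 of 20 His2A, 17 of 22 His4, 0 of 23 His3 and 0 of 23 His1 promoters, against 7.79% of all. Variants of TATAAA were not counted. Both printed His4-His3 regions hold tatataag shortly before the His3 start, so the 0 for His3 does not mean that a TATA-like sequence is absent. The His4 count also depends on where the starts are annotated. TATCGATA, the site of the promoter factor DREF, was found at 0 of 111 histone promoters against 9.36% of all. AACAA was found at 44.1% against 74.6%, in all His2A and His2B promoters and in no His1 promoter. These are matches of letters and not measured binding sites.

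Single arms of the X-box occurred in the array, inside the His2A genes and outside the histone genes. The arm GGCAAC was found at 0 of 111 histone promoters against 17.8% of all. In the whole array it occurred at 66 places on either strand. Of these, 40 lay in His2A genes, 2 in each of the 20 genes, between 355 and 396 bp after the start, and 26 lay outside the histone genes. The 20 His2A genes hold only 4 distinct sequences, so the 40 places are copies of the same few sites. The frequency of the arm in other gene bodies or along the arms was not computed, so these counts do not set His2A apart. No His2A gene had a peak in any list. The full palindrome, GTTGCC with GGCAAC after a spacer of 0 to 3 bases, is too rare among all promoters, at 11 of 13960 (0.0788%), for its count of 0 of 111 to set the histone genes apart.

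Genes that supply, process or handle histones from elsewhere in the genome did carry Rfx-eGFP peaks. The list held 32 genes, which all matched the annotation, with a median unique share of 100% around the start and a lowest of 89.9%. In the larger thresholded set 21 of 32 had a TSS peak (65.6%), against 0 of 111 array genes and 35.4% of all protein-coding genes. Each replicate's own set held 16 of 32, and 13 were in both. The shares of all protein-coding genes were 28.2% in the replicate 1 set and 29.6% in the replicate 2 set. The count was 4 of 6 for variant histone genes, 8 of 14 for the histone locus body and mRNA processing, and 9 of 12 for chaperones. The neighbours Nlp and Nph shared 1 peak. For 13 of the 21 the nearest TSS to the strongest summit was the gene's own. The list was chosen with earlier results of these data known and was not tested against other genes.

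The variant histone genes of the list lie outside the array. His2Av, whose product serves as both H2A.Z and H2A.X in flies, had a signal of 386 in the larger set, 256 in replicate 1 and 144 in replicate 2. Its mean percentile in the replicate sets was 84.1 ± 2.83 (SD, n = 2), although the nearest start was that of ball. His3.3A and His3.3B encode the same replacement histone H3.3. They had signals of 105.5 and 97.5 in the larger set in that order. His3.3A stood at percentile 13.9 in replicate 1 and 28.1 in replicate 2, while the His3.3B summits were different ones, at -243 bp in replicate 1 and 46 bp after a TSS in replicate 2. His4r, the replacement histone H4 gene, had 113.9 in the larger set and 64.3 in replicate 2, with no peak in the replicate 1 set. The nearest start to the His4r summit in the larger set was that of put. BigH1, the linker histone of the early embryo, and cid, the centromeric H3 variant gene, had none in the larger set or in either replicate's set. All 4 variant genes with a peak had weaker signals than the strongest of the list, Nelf-E.

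Among the other genes of the list, the strongest peaks were at Nelf-E and dre4. Nelf-E, a subunit of the complex that pauses RNA polymerase II, had a signal of 884 in the larger set and stood at percentile 96.3 ± 1.51 (SD, n = 2), with the start of RpL14 nearer to the summit. The chaperone gene dre4, which encodes the Spt16 subunit of FACT, had 321 and percentile 79.2 ± 11.2. The gene yem, whose product acts with Hira on H3.3, had 301 and percentile 76.1 ± 7.29, with Ctl2 nearer. Cpsf100, a component of the machinery that cuts histone pre-mRNA, had a signal of 203 in the larger set. Its strongest summits in the replicates were different ones, at -23 bp and percentile 71.6 in replicate 1 and at -483 bp and percentile 65.7 in replicate 2.

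Caf1-180, the large subunit gene of chromatin assembly factor 1, had 180.1 and percentile 52.3 ± 14.1 (SD, n = 2). Spt6, a histone chaperone of transcription elongation, had 172.7 and percentile 52.2 ± 10.5. The gene mxc, which encodes the scaffold of the histone locus body, had 163.1, with percentile 60.6 in replicate 1 and 10.8 in replicate 2. The mxc summit lay at -151 bp in replicate 1 and at -218 bp in replicate 2. Genes without a peak in the larger set included abo, asf1, BigH1, cid, Clamp, FLASH, Hira and Lsm10. Of these, Clamp had a peak in the replicate 2 set, with a signal of 82.7 at 479 bp after a TSS. In the larger ranked list 30 of the 32 genes had a summit, the exceptions being abo and BigH1. The share of all protein-coding genes in that list was 75.3%.

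**Figure D4:**
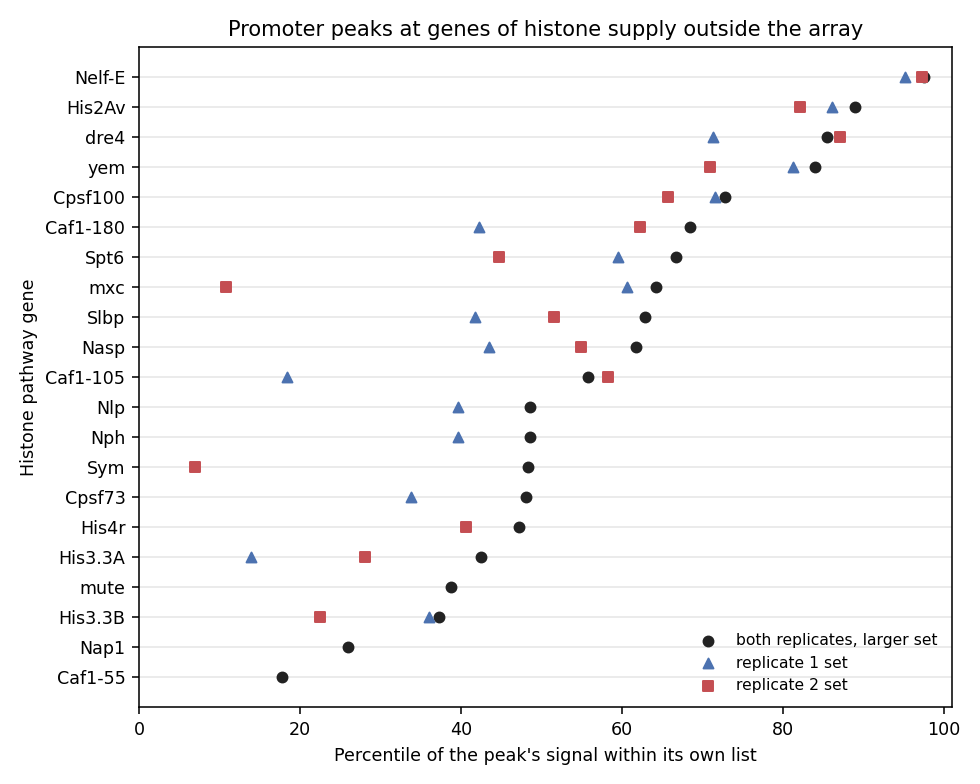
Percentile of the strongest TSS peak's signal within its own list for the 21 histone pathway genes outside the array with a peak in the larger thresholded set, ordered by signal in that set. Circles are the set from both replicates, triangles replicate 1 and squares replicate 2, and a missing mark means no TSS peak in that set. Nelf-E lies above percentile 95 in all 3, while mxc lies at 60.6 and 10.8 in the replicates.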

How the data were processed

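Peak lists were used as deposited on dm6, per the labels. The authors' score expresses the IDR in whole numbers, at most 1000. The deposited signal is their peak caller's enrichment value. The ranked lists add minus log10 (-log10) of the IDR, a column the authors deposited and from which IDR values were computed here. Lists from both replicates and from each replicate are as the deposited text records describe them. Not given in the sources used here were the aligner, the caller, their versions and the handling of multiply matching reads. Columns for the compared inputs were not used. The records give each thresholded set 1 more input than its ranked list and do not say what it did. The conservative and larger ranked lists were told apart by holding all 6978 and all 9250 peaks of their thresholded sets.

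Summits were the peak start plus the deposited offset. TSSs of all transcripts came from Ensembl release 115 (BDGP 6.54). All 111 histone genes had the same coordinates in the RefSeq table of the genome used. Unique words were counted on both strands over the whole RefSeq assembly, scaffolds included. The assignment and word counts were checked on made-up data with known answers. Tools were matplotlib 3.10.9, scipy 1.17.1, pandas 2.3.3 and numpy 2.4.6 in Python 3.11.15.

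The replicates formed 1 group with no contrast, so no test was run. Named were the copies with a ranked summit, the array's ends, the first copy of each class without one, the 8 pathway genes with the strongest peak and 8 without, alphabetically. The other variant histone genes and the neighbours were named after their values were seen. The members and lists were chosen with earlier results of these data known.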

Additional observations from a re-analysis of the deposited data

How the results depend on the processing

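The count of 0 histone genes in the larger thresholded set, in the passing ranked peaks and in each replicate's set stayed 0 with TSS windows of 250 and 1000 bp, gene 5′ ends, any overlap of the peak, nearest TSS only and a score of 1000, as did the count of passing peaks left out in the array under its alternatives. In the lists of both replicates it also stayed 0 in the conservative list and in either replicate alone. The share of all protein-coding genes was 35.4% and became 30.1% (250 bp), 39.6% (1000 bp), 32.9% (gene 5′ ends), 37.0% (overlap), 27.8% (nearest TSS), 32.8% (score of 1000) and 29.9% (conservative set), and 28.2% to 29.6% with 1 replicate left out. The 4 histone genes of the larger ranked list became 1 in the conservative list and 0 to 3 with 1 replicate left out, 0 in replicate 1 alone. Their count ranged from 3 to 5 under the other settings. The 21 pathway genes ranged from 14 (nearest TSS) to 21. Alternatives for the last 2 counts were chosen after seeing the data. Without read counts, an absent peak cannot be told from low coverage.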
